A study of Mus musculus with 24 samples.

Results

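DNA repair and damage signalling genes were followed in mouse embryos exposed to a crosslinking drug. The members were the probes of both deposited value tables with exactly 1 annotated gene symbol that either began with Fanc, Xrcc, Ercc, Msh and a digit, Mlh, Parp, Brca, Neil or Rad and a digit (Rad21 left out) or was 1 of 17 named repair genes, such as Atm, Chek1, Ddb1, Lig3, Mgmt and Xpc. The rule used symbols only and no measured value. It found 51 probes of 42 genes, 29 on the platform of the first table and 22 on the other platform, among 9684 probes with 1 symbol and 6970 such genes. Of the 17 genes named singly, 11 matched a probe, and Atr, Mgmt, Mpg, Nbn, Ogg1 and Xpa did not.

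The embryos were cultured at 37 °C. Treated embryos were kept with 40 µM 4-hydroperoxycyclophosphamide (4CP) for 1 h, and control embryos had no drug. 4CP is a form of the anticancer drug cyclophosphamide that needs no activation by liver enzymes. Each of the 24 two-channel arrays held treated RNA in 1 channel and control RNA in the other, in 3 slide pairs per table, and each pair had treated RNA in channel 1 on 1 slide and in channel 2 on its swapped partner. The sources used here do not give strain, stage, dyes or the number of embryos behind an RNA sample. Nothing says that the slide pairs came from separate cultures. The p-values therefore reflect the variation among slide pairs alone, pooled in part over all probes of a table, and that variation may be technical. The 2 array records of a slide may be 2 arrays or 2 scans of 1 array.

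Activated cyclophosphamide releases phosphoramide mustard, which alkylates guanine and can join the DNA strands to each other, and acrolein, which binds protein thiols. An interstrand crosslink blocks both replication and transcription. It is unhooked with the help of the Fanconi anaemia proteins and structure-specific nucleases, bypassed by translesion synthesis, and completed by homologous recombination and nucleotide excision repair, while simple alkylated bases go to base excision repair. Stalled forks and breaks are signalled by the kinases ATR and ATM through CHEK1 and CHEK2. Much of this signalling runs through phosphorylation and ubiquitylation of proteins already present, which RNA ratios do not measure.

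The values were log ratios of the 2 channels, centred here on the median of each array. The effect of a pair was the slide with treated RNA in channel 1 minus its swapped partner, divided by 2, so that dye bias of a probe cancels, and n = 3 refers to slide pairs. Positive effects stand for more RNA after 4CP on the assumption that channel 1 was the numerator. The labels do not say so, and all signs turn together if it was channel 2. The log base is not stated either and was taken as 2 or e. On that reading 0.1 log units are a 1.07-fold or a 1.11-fold difference and 0.3 are 1.23-fold or 1.35-fold. Ratios hold no levels, so the embryos could not be checked by marker levels. Probes were present for 4 of 8 embryo markers (Ttr, Apoa1, Hba-x and Hbb-y). Signal over background is unknown.

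No repair or damage signalling probe passed the test after 1 h of 4CP. With limma and Benjamini-Hochberg adjustment over all 7680 probes of a table, 0 of 29 members passed an adjusted p of 0.05 in the first table (percentage of all probes passing 0; lowest adjusted p of a member 0.997), and 0 of 22 passed in the second (percentage of all probes passing 0; lowest adjusted p of a member 0.939). No first-table member (0 of 29) reached p under 0.05 before adjustment, where 1.84% of all probes reached it with a positive and 0.508% with a negative effect. Among second-table members it was reached by 0 with a positive effect (1.18% of all probes) and by 3 with a negative one (4.04% of all probes), namely Rad18, Ercc3 and 1 of the 2 probes of Xpc.

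Effects of members were small in both tables, as were those of most probes. The median effect of first-table members was 0.020, with pair medians of 0.037, -0.0069 and -0.014. That of second-table members was -0.011, with -0.015, -0.025 and 0.0094. The medians over all probes were -0.0047 and -0.0015. Of 29 first-table members 28 lay within 0.1 log units of 0, as did 19 of 22 second-table members. Over all probes 7118 of 7680 lay there in the first table and 7397 of 7680 in the second. The median half-width of the 95% interval (limma) was 0.12 and 0.075 log units, and the interval lay wholly between -0.2 and 0.2 for 25 of 29 and 19 of 22 members. It lay between -0.3 and 0.3 for 28 of 29 and 22 of 22. Of first-table members 17 had a positive mean effect (46.2% of all probes had one), 3 were positive in all 3 pairs (11.4% of all probes) and 5 negative in all 3 (11.2%). Of second-table members 7 of 22 had a positive mean effect (48.4% of all probes), 3 were positive in all 3 pairs (9.84%) and 3 negative in all 3 (14.7%). These shares, 10.3% and 17.2% of first-table members and 13.6% each of second-table members, are a description and carry no test. The effects from first and from second arrays of a pair had the same sign in 64 of 87 cases for first-table members (73.6%, against 70.6% for all probes) and in 38 of 66 for second-table members (57.6%, against 59.4%). The mean over pairs had opposite signs from first and second arrays for 5 of 29 first-table and 12 of 22 second-table members. That count was not taken over all probes, so it is not a trait of the members.

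**Figure D1:**
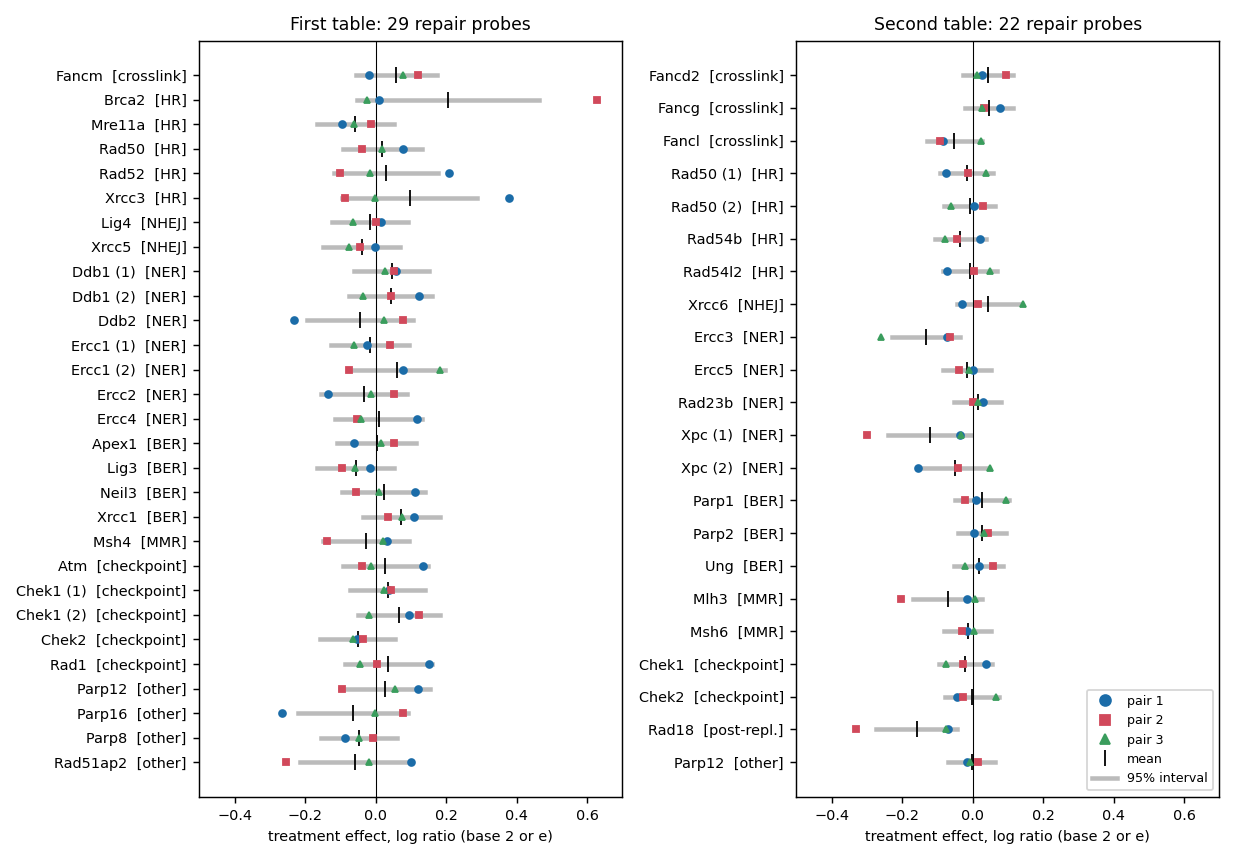
Treatment effects of all 51 repair probes, by pathway, on the log ratio scale (base taken as 2 or e, channel 1 taken as numerator). Coloured points are the 3 slide pairs, black bars their mean, and grey bars the limma 95% interval. Most means lie within 0.1 log units of 0, and the widest spreads, at Brca2 and Xrcc3, come from single pairs.

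The crosslink repair group held the 4 genes whose symbols begin with Fanc. Fancd2, which is ubiquitylated and loaded onto DNA when a crosslink is met, had 0.025, 0.094 and 0.013 in pairs 1, 2 and 3 (mean 0.044 ± 0.044 SD, n = 3). Fancg, a subunit of the core ubiquitin ligase complex, had 0.078, 0.032 and 0.025 (0.045 ± 0.029). Both were positive in all 3 pairs, and their 95% intervals contained 0. Fancl, the catalytic subunit of that ligase, had -0.085, -0.094 and 0.024 (-0.052 ± 0.066), opposite in sign in pair 3. Fancm, the DNA translocase that anchors the core complex at the lesion, had -0.019, 0.12 and 0.077 (0.059 ± 0.071). It was the 1 Fanc gene in the first table. Adjusted p-values ran from 0.956 for Fancg and Fancl to 0.997 for Fancm (limma).

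The values of the Fanc genes in the second table depended on which array of a slide was read. Fancd2 had -0.0024, -0.00047 and -0.030 from the first array of each slide and 0.053, 0.19 and 0.056 from the second. For Fancl the first arrays gave -0.066, 0.097 and 0.052 and the second -0.10, -0.28 and -0.0043. Fancg had 0.14, 0.11 and 0.025 from the first arrays and 0.020, -0.043 and 0.026 from the second, with means of 0.090 and 0.001. The sign of Fancd2 and Fancl thus came from the second arrays and most of the value of Fancg from the first. Leaving out 1 array of the second table, the second array of the pair 2 slide with treated RNA in channel 1, moved Fancd2 to 0.0099 and Fancl to 0.015. That array correlated with the first array of its slide at r = 0.426 across 7680 probes, the lowest of the 12 slides, for which r otherwise ran from 0.679 to 0.926.

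Homologous recombination restores the duplex after unhooking. Brca2, a mediator of strand invasion, had the largest mean effect of any member, 0.20 ± 0.37 (SD, n = 3), through pair 2 alone, with 0.0093, 0.63 and -0.024 in pairs 1, 2 and 3. On the 6 arrays with treated RNA in channel 1 its centred log ratio ran from -0.19 to 2.59 with a median of 0.086, and on the 6 swapped arrays from -0.22 to 0.29 with a median of 0.14. The value of 2.59 came from the second array of 1 pair 2 slide, whose first array had 0.36. From first arrays only, the mean effect was -0.016. Without pair 2 it was -0.0072.

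Xrcc3 also owed its mean to 1 pair. This recombination gene had 0.38, -0.087 and -0.0023 in pairs 1, 2 and 3 (0.097 ± 0.25 SD, n = 3), and without pair 1 its mean was -0.044. The highest of its 12 array values, 0.984, was again 1 array, the second array of the pair 1 slide with treated RNA in channel 1. Rad52, whose yeast counterpart is the main recombination mediator, had 0.21, -0.10 and -0.016. Mre11a, the nuclease of the break-sensing MRN complex, was negative in all 3 pairs with -0.097, -0.014 and -0.061 (-0.057 ± 0.042). Rad50, its partner in that complex, had 0.020 ± 0.059 in the first table and -0.017 ± 0.056 and -0.0087 ± 0.047 on its 2 second-table probes, with no sign shared by all 3. Rad54b, a recombination motor protein, had -0.035 ± 0.051, and Rad54l2, a helicase related to it by sequence, had -0.007 ± 0.061.

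**Figure D2:**
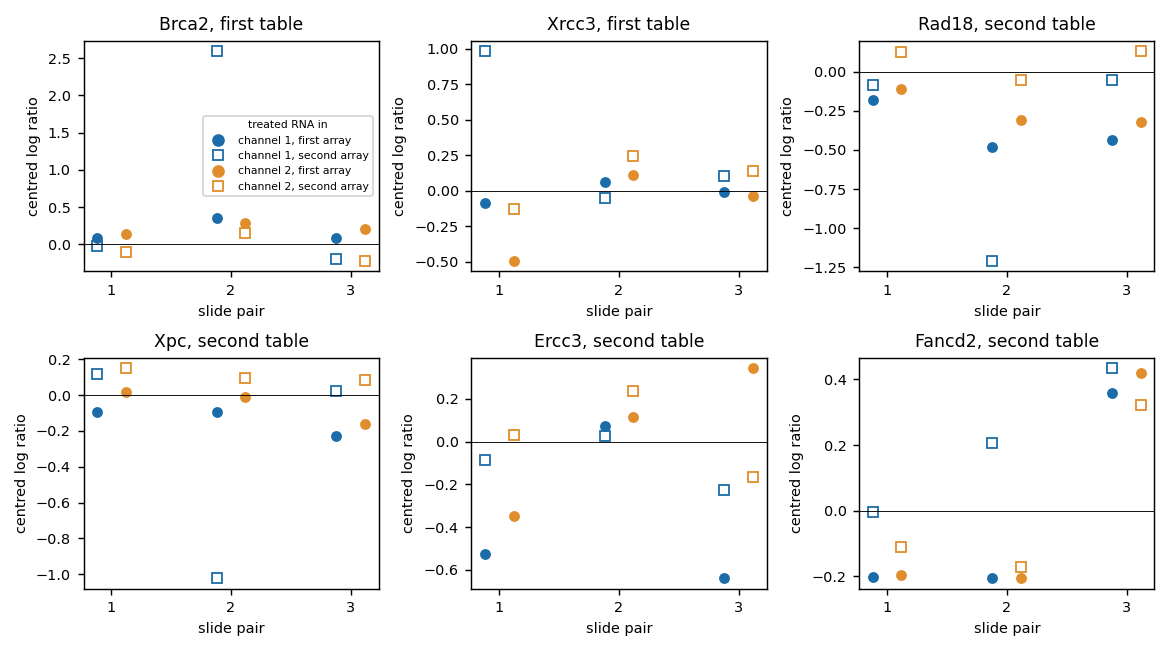
Centred log ratios on each of the 12 arrays of a table for 6 repair probes (the Xpc panel is probe 7294), by slide pair. Blue marks treated RNA in channel 1 and orange in channel 2, filled circles the first array of a slide and open squares the second. Single second arrays stand apart for Brca2 (2.59), Xrcc3 (0.984), Rad18 (-1.21) and Xpc (-1.02).

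Nucleotide excision repair, which removes bulky adducts and takes part in crosslink unhooking, held 12 probes of 9 genes, 5 positive and 7 negative. Ercc3, the XPB helicase of TFIIH, had -0.074, -0.064 and -0.26 in pairs 1, 2 and 3 (-0.13 ± 0.11 SD, n = 3; adjusted p = 0.939 with limma). Its pair 3 value came from the first arrays, which gave -0.49 against -0.031 from the second. On the swapped slide of that pair the first array had 0.343 and the second -0.164. With treated RNA in channel 1 they had -0.639 and -0.227. Ercc2, the XPD helicase of the same complex, had -0.13, 0.051 and -0.014 (-0.032 ± 0.094) in the first table, positive in pair 2 only. The TFIIH helicases were thus both negative on average, but only Ercc3 in every pair. Without pair 1 the mean of Ercc2 was 0.018.

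Xpc, the damage sensor of global-genome repair, had -0.036, -0.30 and -0.032 on probe 7294 (-0.12 ± 0.15 SD, n = 3; adjusted p = 0.945 with limma) and -0.15, -0.042 and 0.048 on probe 7564 (-0.049 ± 0.10). The large value lay in pair 2 on the first of these probes and in pair 1 on the second, each time on 1 second array with treated RNA in channel 1 (-1.02 and -0.68). In pair 1 probe 7564 had 0.029 from first arrays and -0.34 from second arrays. Rad23b, the partner that stabilises XPC, had 0.014 ± 0.015. Ddb1, the cullin adaptor of the UV damage receptor, had 0.046 ± 0.017 and 0.043 ± 0.079 on its 2 first-table probes, the first of them positive in all pairs. Ddb2, the DNA-binding subunit of that receptor, had -0.23, 0.077 and 0.023 (-0.044 ± 0.16), low in pair 1 alone.

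The incision nucleases of this pathway include ERCC1-XPF, which also cuts beside crosslinks. Ercc4, which encodes XPF, had 0.0084 ± 0.095 (SD, n = 3) with 0.12, -0.052 and -0.041 in pairs 1, 2 and 3. Its partner Ercc1 had -0.025, 0.041 and -0.060 on probe 2388 and 0.077, -0.076 and 0.18 on probe 6433, with opposite signs in each of the 3 pairs. Ercc5, the XPG nuclease, had -0.017 ± 0.021 and lay within 0.04 of 0 in each pair.

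Base excision and single-strand break repair genes were positive on average in 6 of 7 cases, none past the test. Xrcc1, the scaffold of single-strand break repair, was positive in all 3 pairs with 0.11, 0.037 and 0.076 (0.073 ± 0.036 SD, n = 3; adjusted p = 0.997 with limma). Lig3, the ligase that XRCC1 binds, was negative in all 3 with -0.016, -0.095 and -0.059 (-0.056 ± 0.040). Partners in 1 complex thus had opposite signs. Parp2, a DNA-break-activated poly(ADP-ribose) polymerase, had 0.0031, 0.042 and 0.033 (0.026 ± 0.021), positive in all pairs, and Parp1, the main enzyme of that kind, had 0.0085, -0.023 and 0.095 (0.027 ± 0.061). Apex1, the endonuclease that cuts at abasic sites, had 0.0031 ± 0.058, and the glycosylases Neil3, which can open some interstrand crosslinks, and Ung, which removes uracil, had 0.023 ± 0.084 and 0.017 ± 0.040.

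Rad18, the ubiquitin ligase that marks PCNA to start translesion synthesis, had the lowest mean effect of all members, -0.16 ± 0.15 (SD, n = 3; adjusted p = 0.939 with limma), with -0.070, -0.33 and -0.075 in pairs 1, 2 and 3. On slides with treated RNA in channel 1 its log ratio was -0.13, -0.84 and -0.25 in the 3 pairs and on the swapped slides 0.0068, -0.18 and -0.096. The value of -1.21 on 1 array was in pair 2, where the first array of that slide had -0.48 and first arrays alone gave a pair effect of -0.085. Over all pairs the 2 orientations overlapped, from -1.21 to -0.053 with treated RNA in channel 1 and from -0.32 to 0.13 with it in channel 2. The first arrays alone gave a mean effect of -0.059 and the second -0.26. Mean effects were -0.073 without pair 2 and -0.098 without that array.

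Mismatch repair and end joining were sparsely covered. Mlh3, an endonuclease subunit, had -0.015, -0.20 and 0.0057 in pairs 1, 2 and 3 (-0.071 ± 0.11 SD, n = 3). Its mean was 0.0097 from first arrays and -0.15 from second arrays, where the second array of the pair 2 slide with treated RNA in channel 1 had -0.94. Msh6, which takes part in recognising mispairs, had -0.014 ± 0.017, and Msh4, a meiotic homologue, had -0.028 ± 0.094. All 3 were negative on average, none in every pair. A count of 3 probes carries no test, and the limma interval of each contained 0. Xrcc5 and Xrcc6 encode the Ku80 and Ku70 subunits of the dimer that binds broken ends. Xrcc5 was negative in all 3 pairs with -0.00065, -0.043 and -0.075 (-0.040 ± 0.037) and Xrcc6, on the other platform, had -0.031, 0.016 and 0.14 (0.043 ± 0.090). Lig4, the end joining ligase, had -0.016 ± 0.041.

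Among checkpoint genes, Atm, the kinase that answers double-strand breaks, had 0.13, -0.038 and -0.013 in pairs 1, 2 and 3 (0.028 ± 0.093 SD, n = 3). Chek1, the effector kinase of the replication checkpoint, had 0.035 ± 0.011 and 0.067 ± 0.076 on its first-table probes and -0.021 ± 0.056 in the second. Chek2, the effector kinase of ATM, was negative in all 3 pairs of the first table with -0.054, -0.034 and -0.064 (-0.051 ± 0.015), while its second-table probe had -0.045, -0.028 and 0.066 (-0.0022 ± 0.060). Rad1, a subunit of the 9-1-1 clamp that activates ATR, had 0.15, 0.0034 and -0.045 (0.036 ± 0.10). None of these 7 probes passed.

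A further 4 genes met the rule by symbol but are not core repair factors. Parp8, Parp12 and Parp16 belong to the mono-ADP-ribosyltransferases of the PARP family. Parp8 was negative in all 3 pairs with -0.085, -0.0069 and -0.048 (-0.047 ± 0.039 SD, n = 3), Parp16 had -0.26, 0.079 and -0.0027, and Parp12 had 0.027 ± 0.11 on its first-table probe and -0.0026 ± 0.017 on its second-table probe. Rad51ap2, known from meiosis, had 0.10, -0.25 and -0.018.

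Of the 42 genes 7 had more than 1 probe. The mean effects of all probes of a gene shared a sign for Ddb1, Xpc and Chek2, and did not for Chek1, Ercc1, Parp12 and Rad50. Where a gene had probes in both tables, all 6 slide pairs were fitted together with limma, with probes averaged within a table. Over 943 such genes 0 passed (lowest adjusted p = 0.686) while 61 lay under 0.05 before adjustment. The 4 members had 0.015 ± 0.060 for Chek1 (SD, n = 6; adjusted p = 0.929), -0.026 ± 0.047 for Chek2 (0.84), 0.012 ± 0.073 for Parp12 (0.952) and 0.0034 ± 0.044 for Rad50 (0.967). Chek2 was negative in 5 of its 6 pairs. The labels do not say whether equally numbered pairs of the tables shared RNA, so the 6 pairs may not be independent.

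**Figure D3:**
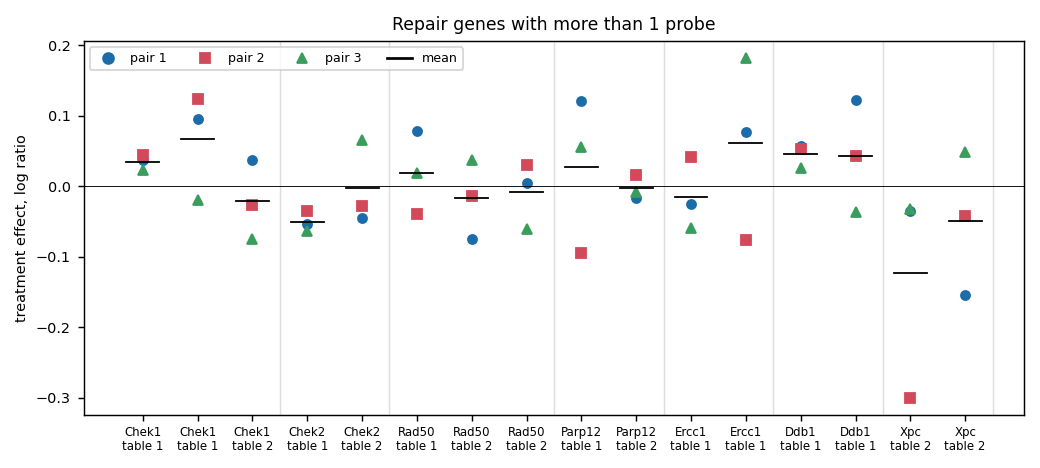
Treatment effects on each probe of the 7 repair genes with more than 1 probe. Points are the 3 slide pairs and black lines their mean. Means of Chek1, Rad50, Parp12 and Ercc1 lie on both sides of 0, and the Xpc probe with the lowest mean owes it to pair 2 at -0.30.

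The effects of members went with those of probes numbered next to them in the table, least so in pair 3 of the first table. The sources used here do not say how probe number relates to position on the slide. For each member the median log ratio of its 20 nearest probe numbers, 10 on either side, was taken on each array, centred as above. Pair effects of the neighbours were then formed from these medians. In pair 2 of the second table these neighbours had -0.16 around Xpc probe 7294, -0.17 around Rad18 and -0.20 around Mlh3, where the members had -0.30, -0.33 and -0.20. Around Ercc3 the neighbours had -0.030 in pair 3, against -0.26 for the gene. The second Xpc probe, 7564, had its low value in pair 1 (-0.15), and its neighbours had -0.098 there. The low values of both Xpc probes thus lay among low neighbours, and that of Ercc3 did not. Over the 29 first-table members, member and neighbours correlated with r = 0.685, 0.651 and 0.153 in pairs 1, 2 and 3. Over the 22 second-table members r was 0.774, 0.815 and 0.726. Member and neighbours had the same sign for 21, 21 and 15 of 29 members in the first table. In the second table they did for 19, 12 and 20 of 22, so a high r in pair 2 went with few shared signs. For all 7680 probes the median was taken over the pair effects of the neighbours instead. There r was 0.576, 0.546 and 0.31 on the first platform and 0.216, 0.521 and 0.495 on the other. The 2 sets of r are thus not the same measure. These values are descriptions, since members and neighbours share arrays and probes are not independent.

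With each array centred on the neighbouring probes, a setting chosen after seeing the data, 0 members passed in either table. Rad18 then had -0.075 ± 0.075 (SD, n = 3), Xpc on probe 7294 -0.053 ± 0.077 and Mlh3 -0.0015 ± 0.016, each closer to 0 than before. Ercc3 kept most of its value at -0.11 ± 0.11 (adjusted p = 0.872 with limma). Xrcc1 had 0.089 ± 0.054, positive in all pairs as before (adjusted p = 0.71). Brca2 remained at 0.23 ± 0.27, where its neighbours had 0.090 in pair 2 against 0.63 for the gene. Of the crosslink repair genes, Fancl had -0.081 ± 0.083, farther from 0 than before, while Fancm had 0.011 ± 0.037, Fancg 0.015 ± 0.042 with pair 3 negative, and Fancd2 0.034 ± 0.035, all closer to 0.

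**Figure D4:**
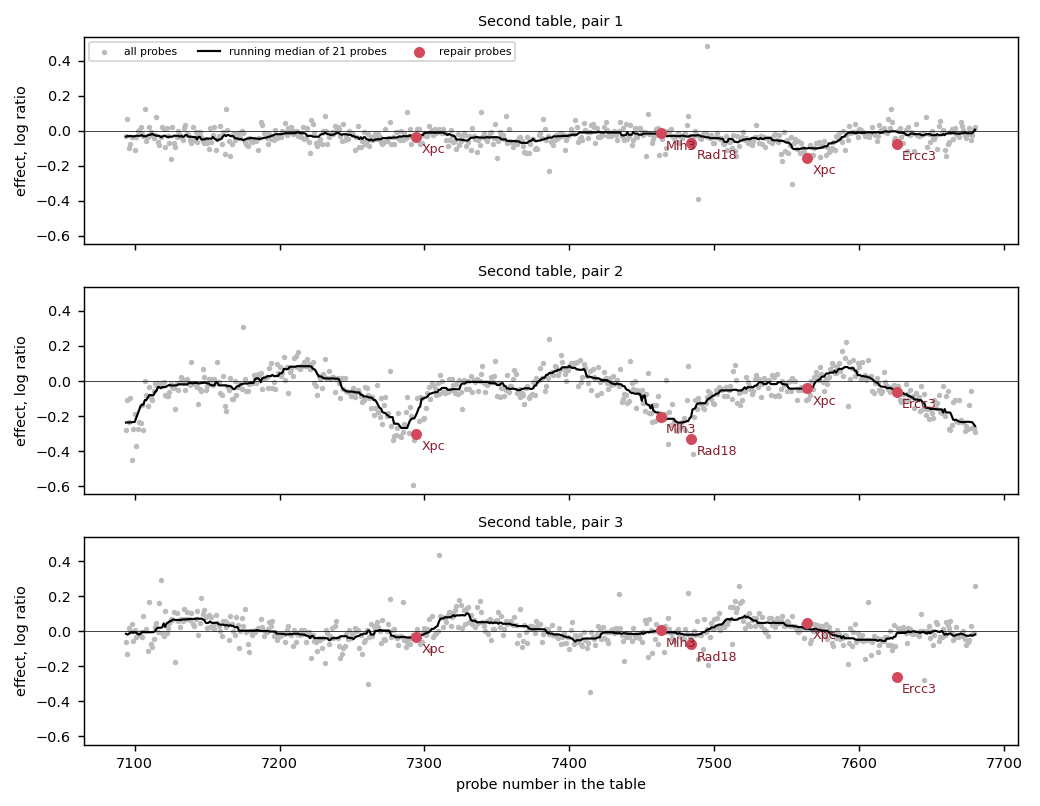
Treatment effects in pairs 1, 2 and 3 of the second table for its highest-numbered probes, against probe number. Grey points are all probes, the black line is the running median over each probe and the 10 on either side, and red points are repair probes. In pair 2 the running median dips repeatedly, and Xpc (-0.30), Mlh3 (-0.20) and Rad18 (-0.33) lie in or beside dips.

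All signs above assume that swapped slides were deposited as scanned. Before any turn each array correlated with the mean of its swapped slide at r = 0.54 to 0.95 over all probes. If values had already been turned to treated over control, the effect would be the mean of both orientations, without the turn. In that reading 0 of 29 first-table members passed, where 2.85% of all probes did, and 0 of 22 in the second table, where the percentage of all probes was 0. Values were larger, with a median absolute size of 0.18 for first-table and 0.10 for second-table members, against 0.043 and 0.026 with the turn. Over all probes that size was 0.17 and 0.15, against 0.035 and 0.023 with the turn. The sign differed between the readings for 20 of 29 and 8 of 22 members. Over all probes it differed for 5190 of 7680 and 3089 of 7680. Without the turn Ddb2 had 0.48, 0.63 and 0.59 in pairs 1, 2 and 3, Fancm had 0.44, 0.46 and 0.41, and Ddb1 had -0.46, -0.044 and -0.95 on probe 3298 and -0.23, -0.070 and -1.68 on probe 7601. Ddb2 and Fancm were above 0 on all 6 slides and Ddb1 probe 7601 below 0 on all 6, while Ddb1 probe 3298 was below 0 on 5 of 6 (adjusted p = 0.128, 0.249, 0.134 and 0.218 in that order, with limma). A dye bias and a treatment ratio that had already been turned cannot be told apart from these values.

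**Figure D5:**
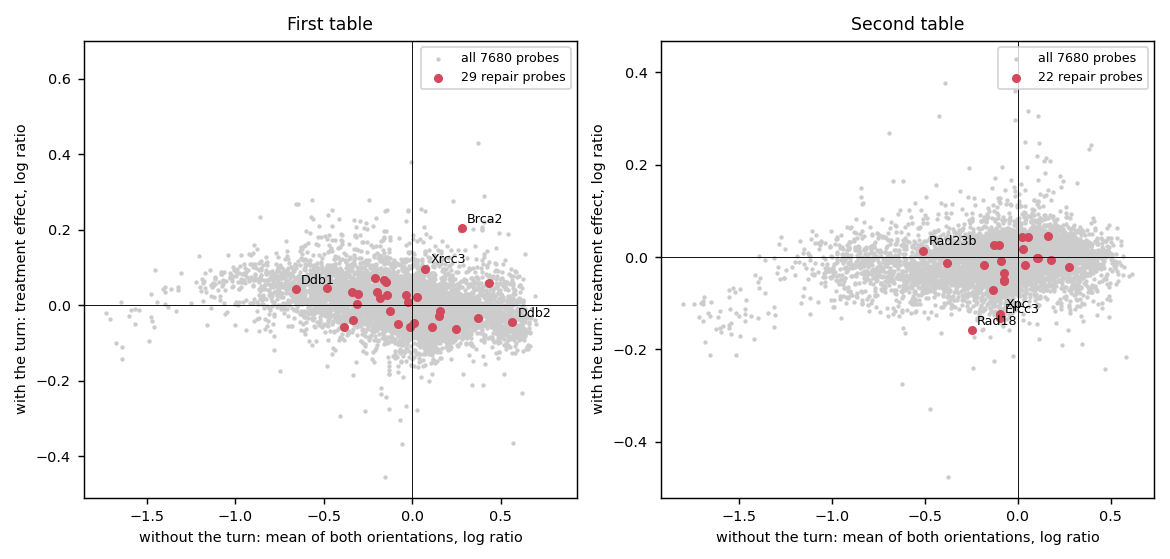
Mean effect with the turn of swapped slides (vertical) against the mean without it (horizontal), in log ratio units, for all probes (grey) and repair probes (red). Repair probes lie within the cloud of all probes, with Ddb2 and Ddb1 at opposite horizontal ends of the members in the first table and Brca2 and Rad18 farthest from 0 vertically.

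Nor did repair genes outside the rule pass. A list of further crosslink, recombination, excision, mismatch, translesion and checkpoint genes had 51 first-table and 43 second-table probes, of 74 genes. With limma 0 of 51 and 0 of 43 passed. Before adjustment 1 of 51 lay under 0.05, with a positive effect (1.84% of all probes), and of the 43 there were 3 with a positive (1.18%) and 2 with a negative effect (4.04%). Their medians were 0.015 and -0.0095, with 30 of 51 and 20 of 43 positive (46.2% and 48.4% of all probes). The lowest p in the first table belonged to Mus81, a nuclease that cuts at crosslinked forks, with 0.087, 0.12 and 0.12 in pairs 1, 2 and 3 (0.11 ± 0.018 SD, n = 3; adjusted p = 0.997), followed by probe 6266 of Cdc25a, the phosphatase that CHEK1 targets, with 0.089 ± 0.031. The other 3 first-table probes of Cdc25a had negative means, -0.052 ± 0.12, -0.049 ± 0.020 and -0.032 ± 0.074, and probe 1465 was negative in all 3 pairs. In the second table it belonged to Rpa2, a subunit of the single-strand binding complex, with 0.030, 0.080 and 0.17 (0.093 ± 0.070; adjusted p = 0.94), followed by Tipin, a fork protection factor, with -0.076 ± 0.040. The first-table probe of Rpa2 had 0.069 ± 0.045.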

How the data were processed

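The deposited values carry no unit and were read as log ratios of channel 1 and channel 2 because they run from -2.60 to 7.71 and from -4.33 to 5.96, negative values included. Base 10 cannot give 7.71 on a 16-bit scanner, whose range has a log10 of 4.82. A 16-bit scanner was assumed, and on that assumption the base was taken as 2 or e. The sources used here give neither scanner nor background correction nor normalization by the authors. The pairing came from the labels' titles, which number each slide together with its swapped partner.

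Arrays were centred on their medians (deposited medians -0.305 to 1.12 and 0.272 to 2.10), and the 2 arrays of a slide were averaged. The mean of 3 pair effects was tested against 0 with limma 3.58.1 in R 4.3.3 over all probes of a table, with a Benjamini-Hochberg threshold of 0.05. The fit was also run on simulated data with independent noise and added effects larger than that of any member. That run does not bear on smaller effects, correlated neighbouring probes or single outlying arrays. Gene symbols came from the platform annotation, and current symbols for the same gene identifiers left the 51 members unaltered. No filter was applied. The unknown log base does not alter the p-values. Alternatives were centring, quantile normalization, single arrays of a slide, no replicate block, omitted pairs, the turn, single orientations and robust eBayes, and, added after seeing the data, centring on neighbouring probe numbers and leaving out 1 second-table array. Members, pathway groups and the further repair list were chosen with earlier results of these data known. Named with values were members of 1 sign in all pairs, those with an unadjusted p under 0.05, genes with several probes, all crosslink, excision and checkpoint genes, and other members after their values were seen. From the further list the 2 probes of lowest p per table were named.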

Additional observations from a re-analysis of the deposited data

Results flagged for a closer look

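Each member's 6 arrays of 1 orientation were searched for a single array far from the others (Dixon's criterion at 95%). Of 102 such groups 5 had one, all 5 with treated RNA in channel 1. Chance would give about 5.1 if the 6 arrays of a group were independent. The 2 arrays of a slide were correlated, so that figure does not apply and the count carries no test. Brca2 had 2.59 on the second array of the pair 2 slide with treated RNA in channel 1, where its other 5 arrays lay between -0.194 and 0.36. Xrcc3 had 0.984 on the second array of the pair 1 slide of that orientation, against -0.0856 to 0.106. In the second table Xpc on probe 7294 had -1.02, against -0.227 to 0.115, and Rad18 had -1.21, against -0.481 to -0.0525, both on the second array of the pair 2 slide with treated RNA in channel 1. Rad54l2 had 0.544 on the first array of that slide, against 0.0344 to 0.157. The cause of these single values was not tested.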

How the results depend on the processing

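No member passed under any alternative but 1: with treated RNA in channel 2 alone, 2 first-table members passed, Ddb2 (-0.61, adjusted p = 0.0485 with limma) and Ddb1 on probe 7601 (0.702, adjusted p = 0.0475), where 668 of all probes did and dye bias does not cancel. Of all first-table probes, 33 passed as deposited and 24 to 30 when a pair was left out. In the unturned reading 219 passed, and 174 when treated RNA was in channel 1. Of second-table probes 1 passed as deposited and 0 to 58 when a pair was left out. Among the further repair genes at most 1 passed under any alternative, except 3 with treated RNA in channel 2. In the joint fit 10 genes passed without the turn. The median of first-table members was -0.104 as deposited, -0.00826 from second arrays, -0.0788 unturned, -0.0876 and 0.0618 for treated RNA in channel 1 and channel 2, and ran from -0.0196 to 0.0298 when a pair was left out. In the second table it was -0.0641 as deposited, -0.0743 without the turn, and -0.0984 and 0.0211 for the single orientations. Without centring the median of all probes moved to -0.128 and -0.0543, and 1 of 29 and 0 of 22 members were positive, against 17 and 7.

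Members positive in all 3 pairs numbered 0 as deposited in each table, and 6 from second arrays and 6 without the turn in the first. Members negative in all 3 numbered 14 as deposited and 3 from first or second arrays in the first table, and 0 as deposited, 5 from second arrays and 8 after centring on neighbours in the second. The paired design was dropped in a fit with no replicate block, in which 0 probes and 0 members passed in each table. The signs of 11, 4 and 3 first-table members and of 5, 2 and 5 second-table members changed without pair 1, 2 and 3, a count not taken over all probes. The causes of these shifts were not tested. The narrowest 95% interval of a member had a half-width of 0.106 log units on the first platform and 0.0667 on the other. Smaller effects were not detectable with 3 pairs. These intervals are not adjusted for the number of probes, so larger effects could also fail the adjusted test. Brca2 at 0.205 and Rad18 at -0.159 had adjusted p-values of 0.997 and 0.939 (limma).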
